A study of Rattus norvegicus with 12 samples.

Results

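DNA methylation genes were described in the striatum of 12 male Sprague–Dawley rats, with 1 RNA-Seq library per rat. The genes were chosen by name: the writers Dnmt1, Dnmt3a and Dnmt3b, the erasers Tet1, Tet2, Tet3 and Tdg, and the readers Mbd1 and Mbd2. Of these 9 genes, 6 were analysed among 17337 genes, and Tet1, Tet2 and Tet3 were not analysed here. All 12 rats were wild type and, by their labels, had self-administered methamphetamine (MA), a psychostimulant, for 16 days. The MA12 rats (n = 4, rats 21, 31, 4N and 7N) were killed after 12 h of abstinence and the MA24 rats (n = 4, rats 9N, 14N, 15N and 16N) after 24 h. A further 4 rats (9, 11, 12 and 13) are labelled non-addicted after the same 16 days of self-administration. The labels used here give no abstinence time for them, and neither the labels nor the methods say how a rat was called non-addicted. The paper describes saline (S), MA intake (M), MA12 and MA24 rats but no non-addicted group. To which of these groups the non-addicted rats belong, if any, is not given. No library used here is labelled S or M, so no drug-naive level can be named. An N closes the number of every MA24 rat and of 2 of the 4 MA12 rats, but of no non-addicted rat, and the sources used here do not say what N stands for. Time of abstinence and time of day cannot be told apart in the MA12 and MA24 rats.

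DNA methyltransferases add a methyl group to cytosine, in mammals mostly where a guanine follows (CpG). Dnmt1 copies the methylation pattern onto the new strand when DNA is replicated, and Dnmt3a and Dnmt3b place methyl groups on unmethylated DNA. The Tet enzymes oxidize methylcytosine, and the glycosylase Tdg cuts out the more oxidized bases, which base excision repair replaces with unmodified cytosine. Mbd1 and Mbd2 bind methylated CpG and recruit corepressors. Neurons no longer divide, and Dnmt3a is the best known methyltransferase of the mature brain.

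Because CpG is the site that these enzymes act on, 2 promoters of writers with many counts are shown. RefSeq promoter windows of the GRCr8 build, which run from 250 bases before to 50 bases after the start of a gene, were matched by symbol for 5 of the 6 genes analysed, and Dnmt3b had none. The 250 bases before the start are given 5′ to 3′ on the strand of the gene, with each CpG in capitals. Dnmt1 lies on the minus strand at chr8:27762842-27763091, and Dnmt3a on the plus strand at chr6:32598352-32598601.
Dnmt1: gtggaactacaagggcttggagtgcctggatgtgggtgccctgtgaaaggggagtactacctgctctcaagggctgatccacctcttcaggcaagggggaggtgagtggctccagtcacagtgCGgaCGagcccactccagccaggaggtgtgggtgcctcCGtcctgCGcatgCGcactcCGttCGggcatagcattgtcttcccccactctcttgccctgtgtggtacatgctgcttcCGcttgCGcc
Dnmt3a: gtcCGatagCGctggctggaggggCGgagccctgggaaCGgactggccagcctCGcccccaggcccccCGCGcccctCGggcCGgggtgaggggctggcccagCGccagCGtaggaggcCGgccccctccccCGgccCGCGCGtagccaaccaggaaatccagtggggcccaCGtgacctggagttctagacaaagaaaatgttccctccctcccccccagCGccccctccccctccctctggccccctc
The letters CG, which read the same on both strands, occurred 9 times before Dnmt1 and 18 times before Dnmt3a. Over the whole window of 300 bases, CpG was counted 17 times for Dnmt1, 21 times for Dnmt3a, 21 times for Tdg, 25 times for Mbd1 and 39 times for Mbd2. The median of all 33469 windows was 7, and 94.5% of them held at least 1 CpG. Fewer CpG than in the window of Dnmt1 were held by 71.0% of all windows. The same share was 77.4% for Dnmt3a and for Tdg, 83.4% for Mbd1 and 96.2% for Mbd2. Methylation itself was not measured in these samples, so the sequences describe the reference and not a state of these rats.

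Total counts per library lay between 17908962 and 23850284, and the top 10 genes took up to 6.26% of a library's counts. Libraries within a group showed a spread beyond counting error (chi-square per degree of freedom 9.75 to 28.1), and each was used as 1 replicate. All 12 markers of striatal projection neurons were above 1 CPM (counts scaled to library total) on average, and their summed level was 14350–18410 CPM in MA12, 17040–18810 CPM in MA24 and 14280–17310 CPM in non-addicted rats. Markers of cortex summed to 2.86–4.26, 3.50–10.3 and 3.36–6.05 CPM in the same order. Levels below are log2 CPM after TMM scaling with a prior count of 2. They were not corrected for gene length and are compared between rats, not between genes. Genes were called changed at a Benjamini-Hochberg adjusted p below 0.05 in edgeR's quasi-likelihood test, fitted over all genes, and were named DEGs if the fold change (FC) was also at least 1.5.

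None of the 6 genes passed the test in any of the 3 comparisons, by edgeR or by DESeq2. Dnmt3a was lower in all 4 MA24 rats than in any MA12 rat, but its adjusted p was 0.119. Dnmt3b was scarce and was lowest in the MA12 rats, with 31 counts over 4 libraries against 62 in MA24 and 80 in non-addicted rats. Tdg, Mbd1, Mbd2 and Dnmt1 overlapped between every pair of groups. In bulk tissue, fewer cells of a type and less RNA per cell cannot be told apart.

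Dnmt3a stood at 5.41, 5.39, 5.31 and 5.29 log2 CPM in MA12 rats 21, 31, 4N and 7N. In MA24 rats 9N, 14N, 15N and 16N its level was 5.21, 4.83, 5.06 and 5.17 log2 CPM. In non-addicted rats 9, 11, 12 and 13 it was 5.002, 5.30, 5.20 and 5.16 log2 CPM. The MA12 rats lay close together (SD 0.0579, n = 4) and above all MA24 rats, and the non-addicted rats overlapped both groups. The log2FC of Dnmt3a in MA24 vs. MA12 was -0.28 (SE 0.106, 95% interval -0.50 to -0.06), which is a level 1.21-fold lower in MA24. Its unadjusted p was 0.0158, and the exact permutation test, two-sided over 70 splits of 4 rats against 4, gave 0.0286, the smallest p it can give. Rat 14N was the lowest of the MA24 rats, and without it the log2FC was -0.21 (edgeR, adjusted p = 0.279). RefSeq names 3 pseudogenes of Dnmt3a, and whether reads shared with them were counted is not given in the sources used here.

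Dnmt3b was counted 12, 12, 3 and 4 times in MA12 rats 21, 31, 4N and 7N, and 16, 17, 11 and 18 times in MA24 rats 9N, 14N, 15N and 16N. In non-addicted rats 9, 11, 12 and 13 the counts were 13, 27, 27 and 13. The level was 0.343 ± 0.188 CPM in MA12, 0.760 ± 0.169 CPM in MA24 and 0.949 ± 0.327 CPM in non-addicted rats (mean ± SD, n = 4 each). Both other groups lay above MA12 without overlap, and within MA12 the rats numbered without N (21 and 31) had more counts than those with N. Pooled over each group, the exact Poisson 95% intervals were 0.243–0.508 CPM for MA12, 0.580–0.970 CPM for MA24 and 0.764–1.199 CPM for non-addicted rats. These intervals cover counting error only, and those of single rats overlapped, for example 0.261–0.881 CPM in MA12 rat 21 and 0.282–1.01 CPM in MA24 rat 15N. The log2FC was 1.11 in MA24 vs. MA12 (SE 0.577, 95% interval -0.10 to 2.32, adjusted p = 0.245 by edgeR). In non-addicted vs. MA12 it was 1.42 (SE 0.549, 95% interval 0.27 to 2.58, adjusted p = 0.282 by edgeR, unadjusted p = 0.0172). The exact permutation test gave 0.0286 for both.

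Within MA12, the Dnmt3b counts differed by the kind of rat number, at 12 and 12 without N and 3 and 4 with N. The MA24 rats, all with N, had 11 to 18 counts, and the non-addicted rats, all without N, had 13 to 27. The part of the kind of number in these counts was not tested. Among rats with N alone, the log2FC in MA24 vs. MA12 was 2.04 (edgeR, adjusted p = 0.246), and with the kind of number as a covariate it was 2.03. Among rats without N, non-addicted vs. MA12 gave 0.92 (edgeR, adjusted p = 0.650). Non-addicted and MA24 rats differ fully in the kind of number, so that group and kind cannot be told apart there. Over the 12 libraries, Dnmt3b correlated with the score of projection neuron markers at r = -0.71 and with that of ependymal markers at r = 0.62, as a description of libraries that also differ in depth. These were the lowest and highest r of the 12 marker lists. Mural cell markers had r = -0.58, endothelial markers -0.50 and choroid plexus markers 0.46. The ependymal markers summed to 46.4–87.0 CPM in MA12, 51.2–69.0 CPM in MA24 and 58.8–115 CPM in non-addicted rats, and the choroid plexus markers to 4.42–10.5, 4.75–7.74 and 8.38–26.3 CPM. The part of these markers in the Dnmt3b values was not tested. RefSeq names 2 pseudogenes of Dnmt3b, 1 of which overlaps the gene, and the counting of overlapping copies is uncertain.

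Dnmt1, the maintenance methyltransferase, was at 5.34, 5.61, 5.43 and 5.43 log2 CPM in MA12 rats 21, 31, 4N and 7N. It was at 5.24, 5.11, 5.38 and 5.47 log2 CPM in MA24 rats 9N, 14N, 15N and 16N, and at 5.45, 5.48, 5.58 and 5.44 log2 CPM in non-addicted rats 9, 11, 12 and 13. The 2 lowest levels were both in MA24 rats, and the highest MA24 rat reached into both other groups. The log2FC was -0.15 in MA24 vs. MA12 (SE 0.107, adjusted p = 0.408 by edgeR) and 0.18 in non-addicted vs. MA24 (SE 0.106, adjusted p = 0.371 by edgeR). In non-addicted vs. MA12 the variance filter removed Dnmt1, and fitted without that filter its log2FC was 0.03 (95% interval -0.14 to 0.20).

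**Figure D1:**
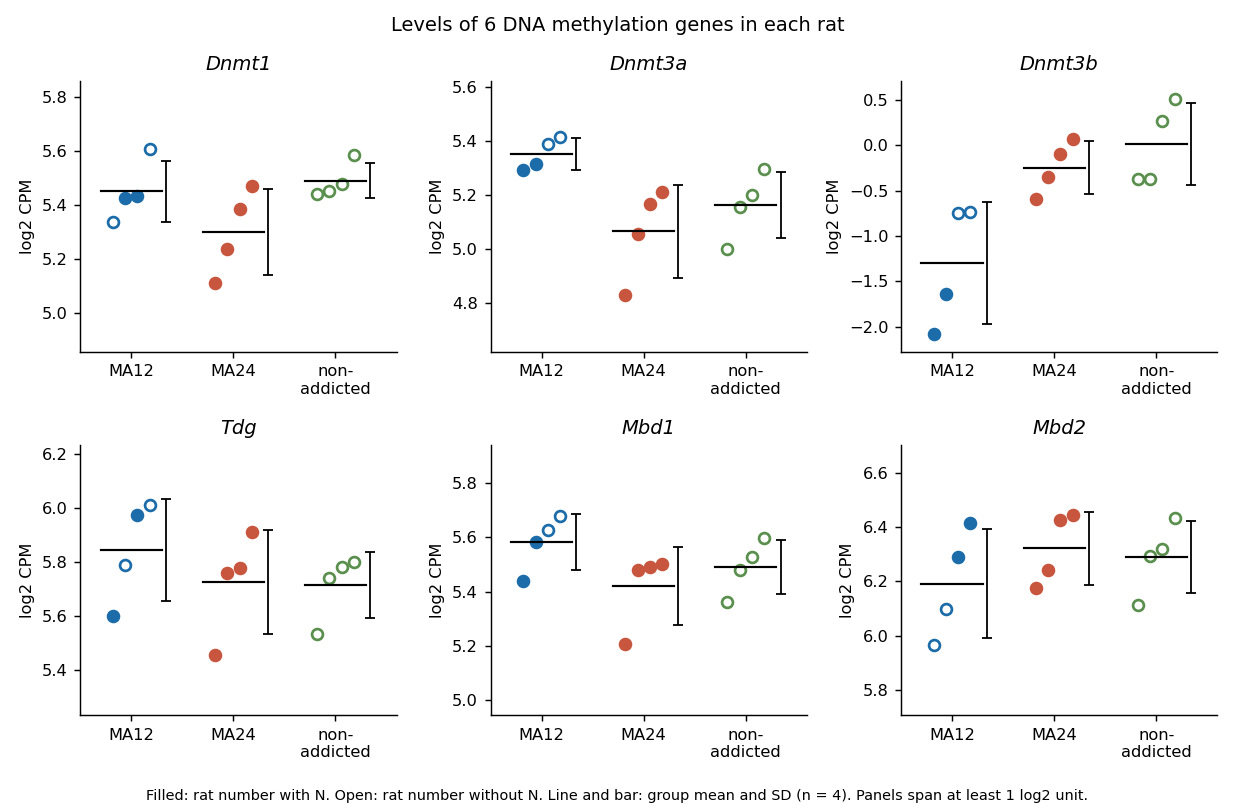
Levels of the 6 genes (log2 CPM) in each rat, by group, with filled points for rat numbers with N, open points for those without, and the group mean and SD (n = 4) as line and bar. Dnmt3a in MA24 lies below all MA12 rats, Dnmt3b is lowest in MA12, and the other 4 genes overlap between all groups.

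Tdg, the only eraser analysed, was at 6.01, 5.79, 5.60 and 5.98 log2 CPM in MA12 rats 21, 31, 4N and 7N. In MA24 rats 9N, 14N, 15N and 16N it was at 5.78, 5.76, 5.91 and 5.46 log2 CPM, and in non-addicted rats 9, 11, 12 and 13 at 5.78, 5.74, 5.80 and 5.54 log2 CPM. The 2 highest levels were in MA12 rats and the lowest in an MA24 rat, with overlap throughout. The log2FC was -0.12 in MA24 vs. MA12 (95% interval -0.36 to 0.13), -0.14 in non-addicted vs. MA12 (95% interval -0.36 to 0.08) and -0.02 in non-addicted vs. MA24 (95% interval -0.25 to 0.21). RefSeq names 3 pseudogenes of Tdg and 1 gene, Glt8d2, that overlaps it, and the strand setting of the counting is not given in the sources used here.

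Mbd1, which has a methyl-CpG-binding domain and also CXXC zinc fingers, stood at 5.68, 5.63, 5.44 and 5.58 log2 CPM in MA12 rats 21, 31, 4N and 7N. It was at 5.50, 5.21, 5.49 and 5.48 log2 CPM in MA24 rats 9N, 14N, 15N and 16N, and at 5.36, 5.60, 5.53 and 5.48 log2 CPM in non-addicted rats 9, 11, 12 and 13. Rat 14N lay far below the other MA24 rats, which were nearly equal. The log2FC was -0.16 in MA24 vs. MA12 (SE 0.104, adjusted p = 0.355 by edgeR), -0.10 in non-addicted vs. MA12 and 0.06 in non-addicted vs. MA24.

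Mbd2, a subunit of one form of the NuRD corepressor complex, was at 5.96, 6.10, 6.29 and 6.42 log2 CPM in MA12 rats 21, 31, 4N and 7N. It was at 6.24, 6.43, 6.17 and 6.45 log2 CPM in MA24 rats 9N, 14N, 15N and 16N, and at 6.11, 6.32, 6.29 and 6.44 log2 CPM in non-addicted rats 9, 11, 12 and 13. The MA12 rats without N had the 2 lowest levels of all 12 rats. The log2FC was 0.13 in MA24 vs. MA12 (SE 0.112, adjusted p = 0.518 by edgeR), and among rats with N alone it was -0.02. In non-addicted vs. MA12 the log2FC was 0.09, and in non-addicted vs. MA24 it was -0.04.

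**Figure D2:**
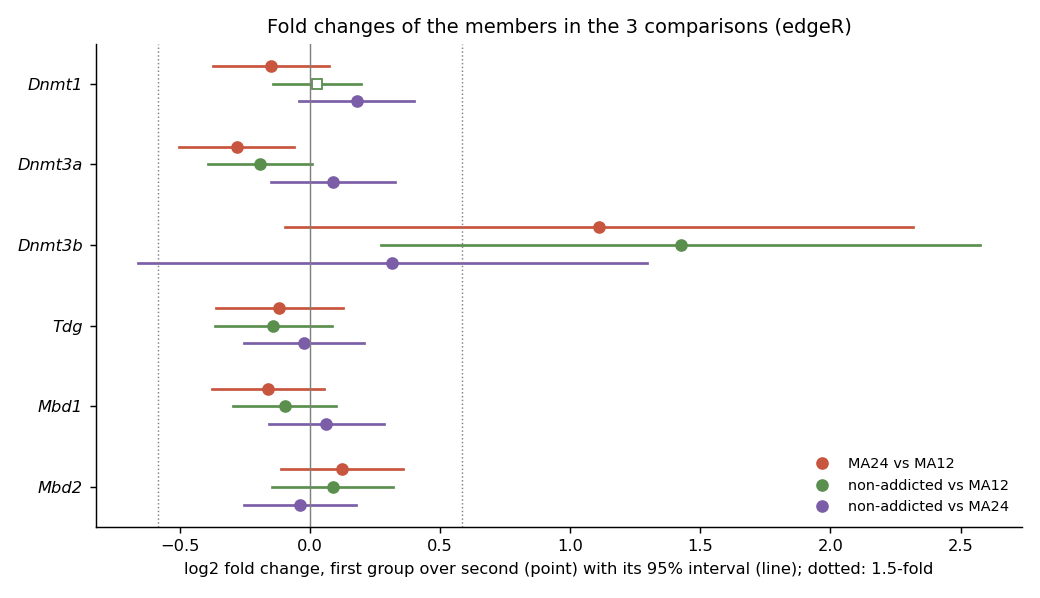
Log2 fold change of each gene (point) with its 95% interval (line) in MA24 vs. MA12, non-addicted vs. MA12 and non-addicted vs. MA24, with dotted lines at an FC of 1.5. The open square is Dnmt1 fitted without the variance filter, and the wide intervals of Dnmt3b, such as 0.27 to 2.58 in non-addicted vs. MA12, go with its low counts.

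The counts of genes that passed a threshold rest on few genes and are given beside the share of all genes tested. In MA24 vs. MA12, 0 of the 6 genes were called, while 5.16% of all 10754 genes were called and 2.45% were DEGs. At an unadjusted p below 0.05, 1 gene (Dnmt3a) passed there against 23.6% of all genes, and 2 genes (Dnmt3a and Dnmt3b) did not overlap between groups against 15.5%. In non-addicted vs. MA12, 0 of the 5 genes tested were called, with 0.27% of all 10758 genes called and 0.251% DEGs. At an unadjusted p below 0.05, Dnmt3b alone passed there against 12.3% of all genes, and it was also the only gene without overlap, against 7.11%. In non-addicted vs. MA24, 0 of the 6 genes were called, with 0.549% of all 10744 genes called and 0.456% DEGs. None passed an unadjusted p of 0.05 there against 17.5% of all genes, and none was free of overlap against 10%. The median log2FC of the genes tested was -0.13, -0.10 and 0.08 in these comparisons, and that of all genes was -0.02, -0.01 and 0.00. Each group serves in a pair of these comparisons, so their values are not independent. For 5 of the 6 genes the 95% intervals in all 3 comparisons lay within an FC of 1.5, and for Dnmt3b they reached past it.

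Across the 12 libraries, Dnmt3a and Mbd1 varied most alike among the 6 genes (Pearson r = 0.90). Dnmt1 followed both less closely (r = 0.53 with Dnmt3a and 0.54 with Mbd1), while Tdg and Mbd2 ran opposite to each other (r = -0.58). Dnmt3b had r between -0.34 and 0.12 with the other genes. Dnmt3a also varied with the score of oligodendrocyte precursor markers (r = 0.80), which summed to 176–216 CPM in MA12, 162–198 CPM in MA24 and 169–191 CPM in non-addicted rats. That r was the highest of the 12 marker lists, followed by astrocyte markers (0.53) and striatal interneuron markers (0.52). The part of any of these markers in the Dnmt3a values was not tested. These correlations describe 12 libraries that differ in group and depth, and no test was attached to them.

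The wider pathway was described with 8 lists of 124 genes, of which 108 were analysed. In MA24 vs. MA12, 5 of the 75 genes tested were called, 3 higher and 2 lower in MA24, and 2 were DEGs, against 5.16% called and 2.45% DEGs among all genes. At an unadjusted p below 0.05, 19 of them passed, 5 higher and 14 lower, against 23.6% of all genes, so these counts lay near the share of all genes. More genes were also called lower than higher in MA24 among all genes (357 against 198). The median log2FC of the 75 genes was -0.07, and that of all genes was -0.02. The called genes of the lists were 1 gene of the list of readers, 3 of the list of erasers' partners and base excision repair, and 1 writers' partner. The lists of the methyl donor cycle, 2-oxoglutarate supply, corepressors, imprinted genes and germline genes held none.

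Mbd6 is in the list of readers because it carries a domain of the methyl-binding family, and its binding to methylated CpG was not examined here. It was higher in all MA24 rats (5.66, 6.09, 5.77 and 5.99 log2 CPM) than in all MA12 rats (5.51, 5.44, 5.54 and 5.30 log2 CPM). Its log2FC was 0.44 (SE 0.110, adjusted p = 0.0275 by edgeR). Its call was lost in 7 of 17 alternatives, among them the fits without MA12 rat 21, 31 or 7N and without MA24 rat 14N or 16N (edgeR, adjusted p from 0.0549 to 0.0814). Mbd3, the other MBD subunit of NuRD, had a log2FC of 0.28 (adjusted p = 0.157 by edgeR). Mbd4 was not analysed here.

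Among the erasers' partners, Gadd45g, a stress-induced gene of a family linked to active demethylation, was lower in MA24 than in MA12 rats. It was counted 637, 803, 589 and 617 times in MA12 rats 21, 31, 4N and 7N, and 397, 460, 476 and 333 times in MA24 rats 9N, 14N, 15N and 16N. Its levels did not overlap, and the log2FC was -0.59 (SE 0.137, adjusted p = 0.0202 by edgeR). The call was lost without MA12 rat 31 (edgeR, adjusted p = 0.0526) or MA24 rat 16N (edgeR, adjusted p = 0.0603). The related Gadd45a and Gadd45b had log2FC of 0.18 and 0.07 (edgeR, adjusted p = 0.373 and 0.735), the latter -0.01 among rats with N. Xrcc1, the scaffold of single-strand break repair that follows base excision, was at 5.78, 5.88, 5.75 and 5.93 log2 CPM in MA12 rats 21, 31, 4N and 7N and at 6.10, 6.65, 6.19 and 6.42 log2 CPM in MA24 rats 9N, 14N, 15N and 16N. All MA24 rats lay above all MA12 rats, and the log2FC was 0.52 (SE 0.116, adjusted p = 0.0160 by edgeR). Xrcc1 was called with each rat left out in turn. The log2FC was 0.77 (SE 0.209, adjusted p = 0.0385 by edgeR) for Mutyh, the glycosylase that removes adenine opposite oxidized guanine. It was counted 167, 161, 100 and 123 times in MA12 rats 21, 31, 4N and 7N and 203, 317, 186 and 177 times in MA24 rats 9N, 14N, 15N and 16N, so that rat 14N stood out, and without it the log2FC was 0.53 (edgeR, adjusted p = 0.156). The call of Mutyh was lost in 9 of 17 alternatives, among them the fits without MA12 rat 21, 31 or 4N, without MA24 rat 14N, 15N or 16N, and without the variance filter (edgeR, adjusted p from 0.0545 to 0.156).

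Among the writers' partners, Nsd1, a histone H3 lysine 36 methyltransferase whose mark Dnmt3a can bind, was lower in MA24. It stood at 6.87, 6.87, 6.75 and 6.58 log2 CPM in MA12 rats 21, 31, 4N and 7N and at 6.503, 5.90, 6.32 and 6.33 log2 CPM in MA24 rats 9N, 14N, 15N and 16N, without overlap. The log2FC was -0.49 (SE 0.118, adjusted p = 0.0235 by edgeR), and without rat 14N it was -0.39 (edgeR, adjusted p = 0.0584). The call of Nsd1 was lost in 5 of 17 alternatives, also without MA12 rat 21 or 31 (edgeR, adjusted p = 0.0671 and 0.0556). Uhrf1, which brings Dnmt1 to newly replicated DNA, had a log2FC of 0.06 with values of -0.12 to 0.53 when single rats were left out, and the related Uhrf2 had 0.09 (edgeR, adjusted p = 0.917 and 0.619). Rat 14N was thus the lowest MA24 rat for Dnmt1, Dnmt3a, Mbd1 and Nsd1 and the highest for Xrcc1, Mutyh and Mbd6. With only rats numbered with N (2 MA12 against 4 MA24), or with the kind of number as a covariate, 0 of the listed genes were called. The log2FC of Gadd45g and Xrcc1 among rats with N were -0.60 and 0.53 (edgeR, adjusted p = 0.0673 and 0.0732).

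**Figure D3:**
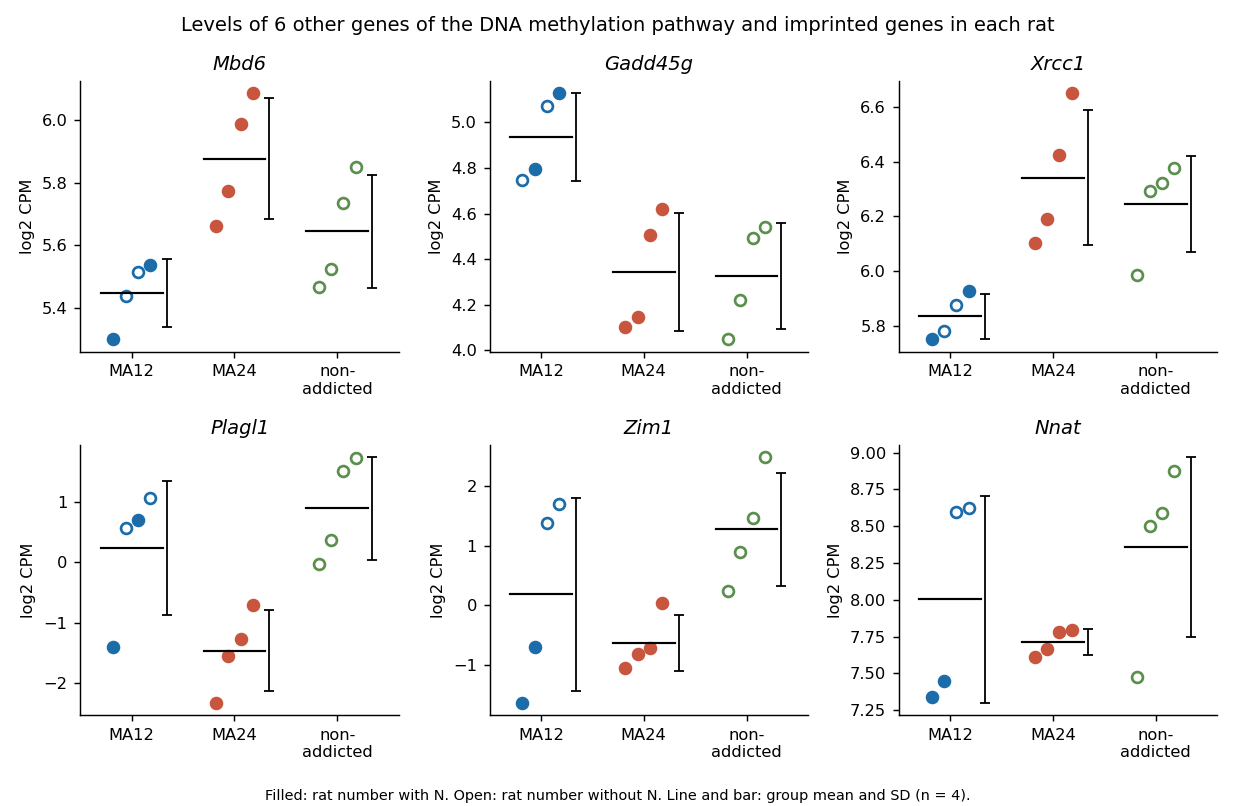
Levels (log2 CPM) of Mbd6, Gadd45g, Xrcc1 and the imprinted genes Plagl1, Zim1 and Nnat in each rat, drawn as for the 6 genes above. Gadd45g is higher and Xrcc1 lower in MA12 than in both other groups without overlap, and Zim1 and Nnat in the MA12 rats with N lie below those of the MA12 rats without N.

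In non-addicted vs. MA12, 0 of 74 genes of the lists were called by edgeR, against 0.27% of all genes, and 5 passed an unadjusted p below 0.05, against 12.3%. DESeq2 called 2, Gadd45g and Xrcc1. Gadd45g showed a log2FC of -0.61 (SE 0.133, edgeR adjusted p = 0.0557) and counts of 444, 376, 401 and 431 in non-addicted rats 9, 11, 12 and 13. For Xrcc1 the log2FC was 0.41 (SE 0.102, edgeR adjusted p = 0.0826), and both genes were free of overlap with MA12. Without non-addicted rat 13, both were called by edgeR (adjusted p = 0.0346 for Gadd45g and 0.0208 for Xrcc1).

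In non-addicted vs. MA24, 2 of 71 genes were called, against 0.549% of all genes. Both were higher in non-addicted rats and both are imprinted, meaning that methylation set in the germ line keeps 1 parental copy silent. Plagl1, a maternally imprinted zinc finger gene, was counted 23, 65, 67 and 17 times in non-addicted rats 9, 11, 12 and 13 and 12, 5, 2 and 6 times in MA24 rats 9N, 14N, 15N and 16N. Its log2FC was 2.72 (SE 0.553, adjusted p = 0.0354 by edgeR). In MA12 rats 21, 31, 4N and 7N it was counted 33, 48, 6 and 27 times. Zim1, an imprinted zinc finger gene beside Peg3, was counted 51, 112, 43 and 21 times in non-addicted rats 9, 11, 12 and 13 and 9, 19, 10 and 9 times in MA24 rats 9N, 14N, 15N and 16N. Its log2FC was 2.24 (SE 0.487, adjusted p = 0.0443 by edgeR). In MA12 rats 21, 31, 4N and 7N it was counted 75, 60, 11 and 4 times, so that the 2 MA12 rats with N lay near MA24 and those without N near the non-addicted rats. Both calls were lost without non-addicted rat 11 (edgeR, adjusted p = 0.112 for Plagl1 and 0.197 for Zim1) or 12 (0.107 and 0.0885), and without MA24 rat 15N (0.0906 and 0.101) or 16N (0.0848 and 0.106). Zim1 was also lost without MA24 rat 9N (edgeR, adjusted p = 0.0714). Counted over all alternatives, the call was lost in 7 of 14 for Plagl1 and in 8 of 14 for Zim1. These included the fits with low-variance genes kept, with all 3 groups, and with variance ranked without TMM scaling.

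Of the 17 imprinted genes tested in non-addicted vs. MA24, 15 had a log2FC above 0 (median 0.29), against 50.3% of all genes (median 0.00). At an unadjusted p below 0.05, 9 of the 17 passed, 8 higher and 1, Igf2, lower in non-addicted rats, against 17.5% of all genes. No test of the list as a whole was made, and the list was chosen with earlier results of these data known. Non-addicted and MA24 rats differ fully in the kind of number, so group and kind cannot be told apart in these counts. Of these 9 genes, Dlk1, Grb10, Nap1l5, Nnat, Peg3 and Zim1 were also higher in both MA12 rats without N than in both with N. Igf2 was lower in the MA12 rats without N, and Mest and Plagl1 overlapped. In MA24 vs. MA12, 3 of 17 were above 0 (median -0.11), against 48.3% of all genes, with log2FC of -2.10 for Plagl1 and -1.48 for Zim1 (edgeR, adjusted p = 0.0556 and 0.163). In non-addicted vs. MA12, 14 of 17 were above 0 (median 0.15), against 47.7% of all genes, with 0.62 for Plagl1 and 0.75 for Zim1 (edgeR, adjusted p = 0.649 and 0.644). Zim1 turned direction with the kind of rat number, to 0.62 in MA24 vs. MA12 among rats with N and to -0.03 in non-addicted vs. MA12 among rats without N. Nnat, an imprinted gene chosen here after its values were seen, was counted 9201, 9449, 3714 and 2869 times in MA12 rats 21, 31, 4N and 7N. In MA24 rats 9N, 14N, 15N and 16N it was counted 5159, 4121, 4287 and 3706 times, and in non-addicted rats 9, 11, 12 and 13 it was counted 7385, 9500, 8836 and 3418 times. The MA12 rats with N and non-addicted rat 13 were thus the lowest of their groups. Markers of thalamus and hypothalamus, where some imprinted genes are abundant, summed to 18.2–23.5 CPM in MA12, 18.3–22.4 CPM in MA24 and 19.6–33.0 CPM in non-addicted rats, with Pmch at 0. Of the 12 marker lists, 4 separated non-addicted from MA24 rats without overlap. Oligodendrocyte markers summed to 12060–17760 CPM in non-addicted and 18590–21790 CPM in MA24 rats, and endothelial markers to 301–427 and 486–531 CPM. Mural cell markers summed to 86.2–118 CPM in non-addicted and 122–147 CPM in MA24 rats, while choroid plexus markers, given above, were higher in non-addicted rats. The part of any of these markers in the values of the imprinted genes was not tested.

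**Figure D4:**
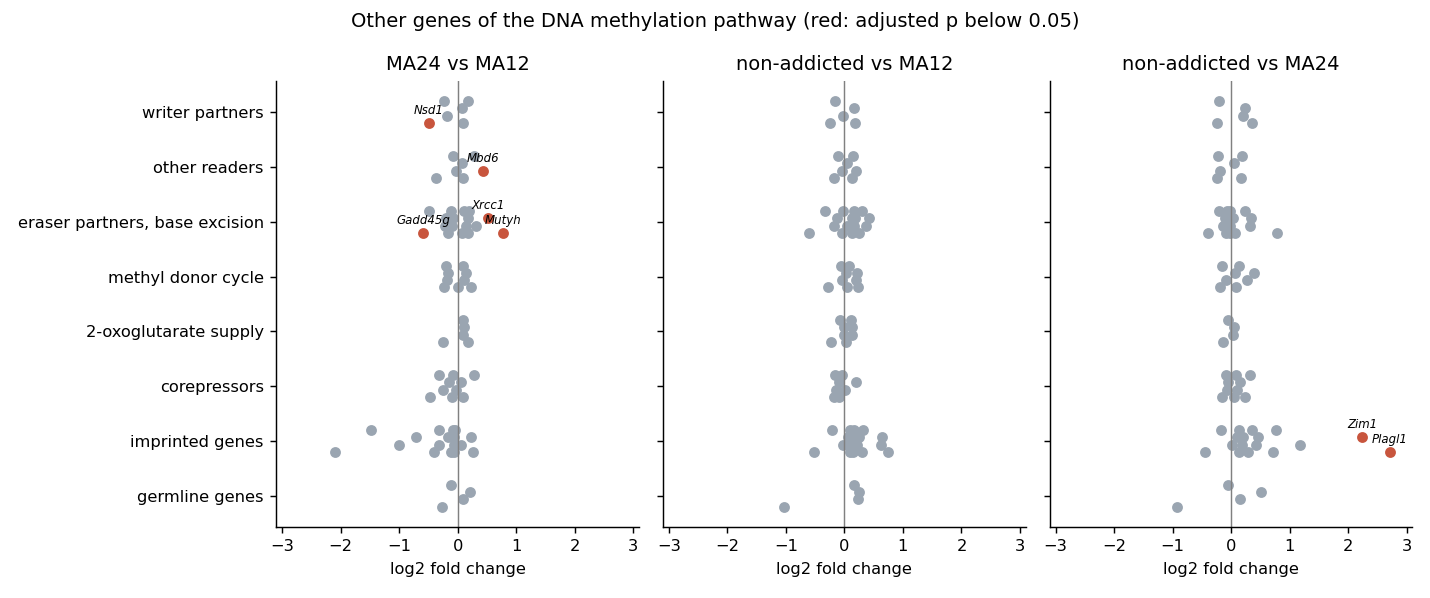
Log2 fold change of each tested gene of the 8 lists in the 3 comparisons, with called genes in red and named. In MA24 vs. MA12 the 5 called genes are in the first 3 lists, and in non-addicted vs. MA24 the 2 called genes are imprinted.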

How the data were processed

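RNA was measured in the striatum of 12 rats. According to the methods and labels, poly-A RNA was prepared with TRIzol and a TruSeq kit and sequenced as paired-end reads. The authors used Cutadapt 1.18 for trimming, STAR 2.7.0e for alignment to rn6 and featureCounts for counting per gene, and the deposited values are these raw counts, without normalization. HTSeq 0.12.4 is also listed in the submitters' processing notes, with no role. The setting for strand and for reads with several positions is not given in the sources used here. Groups and rat numbers came from the labels. All 12 columns of the table were used.

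Tests were run with edgeR 4.0.16 (R 4.3.3). In every comparison of 8 libraries, a gene needed a mean count above 4, and the 15% of genes least variable in TMM-scaled log2 CPM (prior count 2) were then taken out, which is a reading of the filters the study names. After TMM normalization, glmQLFit and glmQLFTest were applied without covariates, with Benjamini-Hochberg adjustment over all genes tested. Genes removed by the variance filter were fitted without it. Single genes were also compared by two-sided exact permutation tests. The script was tested on simulated data. No rat or gene was dropped or imputed otherwise. The p-values set a difference between groups against the spread of rats within them. Whether the rats of a group were independent in litter or cohort is not given, and without independence these p-values could be too small. Total counts of 17908962 to 23850284 per library left Dnmt3b with 3 to 27 counts and the other 5 members with at least 575.

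Genes outside the 6 members were named by a rule: Mbd3, Mbd4, Uhrf1, Uhrf2 and the 3 Gadd45 genes where they passed the count filter, the 5 largest called changes in each direction per comparison, and the 3 genes that varied most like the member with the smallest p. Outside this rule, Nnat, Igf2, Dlk1, Grb10, Mest, Nap1l5, Peg3, Mtr, Ogdh, Gatad2b, Ncor1, Setdb1 and Tbl1xr1 were named after their values were seen. One gene of the lists is not reported here and was left out of their counts. The members and lists were chosen with earlier results of these data known. Alternatives were RLE factors, DESeq2 1.42.0, other filters, a fit of all 3 groups, fits leaving out each rat, rats of 1 kind of number, that kind as a covariate, and, added after the data were seen, variance ranked without TMM scaling. RefSeq tables of GRCr8 gave promoters and names of pseudogenes. No rn6 reference was used.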

Additional observations from a re-analysis of the deposited data

Results flagged for a closer look

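In 54 groups of 4 rats (18 genes in 3 groups), the gap between an extreme rat and its neighbour, divided by the range of the group, was compared with the 95% critical value of Dixon's test. It was exceeded in 5 groups, where chance gives 2.7. Mbd1 was lowest in MA24 rat 14N, with a ratio of 0.931 (5.21 log2 CPM against 5.48 to 5.50 in the other MA24 rats). Mutyh was highest in the same rat (0.845), lowest in MA12 rat 4N (0.893) and lowest in non-addicted rat 13 (0.922). Uhrf2 was lowest in MA12 rat 4N (0.843).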

How the results depend on the processing

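No gene of the 6 was called in any comparison under any alternative that could be run. Of 274 fold changes of these genes under alternatives, 268 kept their direction and 6 turned it, and none crossed the threshold. Mbd2 in MA24 vs. MA12 turned to -0.018 among rats with N and to -0.034 with the kind of number as a covariate. When single rats were left out, Mbd2 in non-addicted vs. MA24 ranged from -0.090 to 0.018 and Tdg from -0.10 to 0.041. Dnmt3a in MA24 vs. MA12 ranged from -0.33 to -0.21. Dnmt3b could not be fitted in the MA12 comparisons when every library needed 10 counts.

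Of the other genes of the lists, 5 were called in MA24 vs. MA12, and 1 to 9 when single rats were left out (1 without MA12 rat 31, 2 without MA12 rat 21, MA24 rat 14N or MA24 rat 16N, and 9 without MA24 rat 9N). The count was 0 among rats with N and 0 with the kind of number as a covariate. In non-addicted vs. MA12, against 0, DESeq2 called 2, the fit without a low-count filter 1, the fit with 10 counts in every library 1, and the fits without single rats 0 to 2, the last without non-addicted rat 13. In non-addicted vs. MA24, against 2, DESeq2 called 5 and the fit without a low-count filter 5. It was 0 with 10 counts in every library, 0 with low-variance genes kept, 0 with all 3 groups in the fit and 0 with variance ranked without TMM scaling. Without single rats it was 0 to 6 (0 without non-addicted rat 11 or 12 or MA24 rat 15N or 16N, and 6 without non-addicted rat 13). The causes were not tested, except that 10 counts in every library removed Plagl1 and Zim1 from the test.

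Uhrf1 in MA24 vs. MA12 ranged from -0.12 to 0.53 without single rats. Gadd45b there turned to -0.014 among rats with N and to -0.029 with the covariate, and Zim1 to 0.62 and 0.60. Zim1 in non-addicted vs. MA12 turned to -0.028 among rats without N and to -0.044 with the covariate. No paired analysis was possible because each rat gave 1 library and belonged to 1 group. At this depth the counts of Dnmt3b, Plagl1 and Zim1 carry large counting error.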

Other observations

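The genes that supply the methyl groups and the cofactor of the Tet enzymes did not pass the threshold in any comparison. Among all genes, 5.16%, 0.27% and 0.549% were called in MA24 vs. MA12, non-addicted vs. MA12 and non-addicted vs. MA24, and 23.6%, 12.3% and 17.5% passed an unadjusted p below 0.05, in the order used for the counts here. Of the methyl donor cycle, in which S-adenosylmethionine is made and renewed, 0 of 9 tested genes were called in MA24 vs. MA12, 0 of 9 in non-addicted vs. MA12 and 0 of 8 in non-addicted vs. MA24 by edgeR, and 0, 0 and 1 (Mtr) passed an unadjusted p below 0.05. Of the genes that make or compete with 2-oxoglutarate, 0 of 5, 0 of 8 and 0 of 4 were called by edgeR, with 1 (Ogdh), 1 (Ogdh) and 0 at an unadjusted p below 0.05. Of the corepressors that readers recruit, 0 of 10, 0 of 8 and 0 of 10 were called by edgeR, with 4, 0 and 1 at an unadjusted p below 0.05. The 4 at that level in MA24 vs. MA12 were Gatad2b, Ncor1, Setdb1 and Tbl1xr1, and Setdb1 alone was higher in MA24. Only 4 of 12 germline genes that methylation silences in somatic cells were tested, and 0 were called in any of the 3 comparisons by edgeR, with 0 at an unadjusted p below 0.05 in each.

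The 3 genes whose levels varied most like Dnmt3a over the 12 libraries, among 10764 genes with a mean count of at least 50, were Adarb2 (Pearson r = 0.97), Slc39a9 (0.97) and Cmtm4 (0.97). The libraries share group and depth, and no test was attached to these values.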
